A study of Homo sapiens with 30 samples.

Results

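Integrins and laminins are the receptors and part of the ligands by which cells hold on to the extracellular matrix. Genes were taken by symbol: all integrin alpha and beta chains and all laminin alpha, beta and gamma chains. The 2 gene tables, of 26475 genes each, both held the same 38 such genes. Of these, 26 reached a mean of at least 1 CPM (CPM is the usual count scaled to library size, here with TMM normalization) in at least 1 of the 10 groups and enter the counts below. The laminin chain LAMA1, at 1.11 CPM in its highest group, lay just inside that limit, and the leukocyte integrin ITGAM, at 0.99998 CPM, just outside. The other 12 genes (ITGA11, ITGA2B, ITGA4, ITGA8, ITGA9, ITGAD, ITGAL, ITGAM, ITGAX, ITGB6, LAMB4 and LAMC3) stayed below it, and from their levels nothing is read about a lineage except where stated.

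All libraries were made from MDA-MB-231, an established breast cancer line of mesenchymal character, and every lineage is labelled wild type and distinct. The series' design text calls 03, 10, 13, 22, 35 and 45 clones, so each of these stands for 1 clone of 1 cell line. Lineages 22, 35 and 45 were each sequenced after about 24 hours alone (isolation) and after 15 days in a culture of 6 members that went through a bottleneck every 3 days, from which they were recovered by fluorescence-activated sorting. Lineages 03, 10 and 13 and a group called Pop were sequenced in isolation only, and no label explains the name Pop. All cells grew in RPMI-1640 medium with 10% dialyzed fetal bovine serum and 2 mM L-glutamine, and the labels name no treatment other than co-culture. The first table holds the 18 libraries of 22, 35 and 45, and the second the 12 libraries of 03, 10, 13 and Pop. There are 3 libraries in each group, and no level is compared across tables by a test.

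An integrin is a pair of an alpha and a beta chain, and the pair decides the ligand: some bind collagen, some laminin, some the RGD motif of fibronectin and vitronectin, and a further set is used by leukocytes. ITGB1 joins most of the alpha chains found in epithelial and mesenchymal cells, whereas ITGB4 pairs with ITGA6 in hemidesmosomes. A laminin is a trimer of an alpha, a beta and a gamma chain in the basement membrane. LAMA3 and LAMB3 are chains of the laminin of epithelial anchorage, and LAMA5 or LAMA4 joins LAMB1 and LAMC1 in laminins of many tissues.

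Libraries of the first table held 29817786 to 38843397 counts and those of the second 28088366 to 35356101. Whether replicates are separate cultures is not given, and p-values then cover only the spread among libraries, which may be technical. Of 6 mesenchymal markers of the cell line, all but CDH2 were abundant in every group. The 6 genes summed to 5540 to 10300 CPM over all libraries, with vimentin at 2330 to 5910 CPM and CDH2 at only 0.394 to 1.42 CPM as group means. In bulk RNA, fewer cells of a type and less RNA per cell cannot be told apart. Time in culture, cell sorting and the RNA extraction kit changed together with co-culture, and their effects cannot be told apart from it. The co-culture libraries labelled 35 went against their label: over all tested genes they correlated less with isolated 35 (mean r = 0.924, log2 CPM) than with isolated 22 (0.950) or isolated 45 (0.964). All 9 genes that marked isolated 35 at least 8-fold over 22 and 45 were at least 8-fold lower in them (median 24.2 CPM against 0.32 CPM), and no integrin or laminin gene is among those 9. Every change given below for the libraries labelled 35 is therefore a difference between 2 sets of libraries with that label, and whether both hold the same clone was not tested.

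Levels between genes were compared as CPM per kilobase of the longest annotated transcript. The receptor transcripts were led by ITGB1, the common beta chain, and ITGA3, a laminin-binding alpha chain, in all 10 groups by this length. In isolated 22 these stood at 666 ± 22.0 and 259 ± 2.55 CPM per kb (SD, n = 3, as for all means below). In lineage 13 the pair came close, at 389 ± 10.4 for ITGB1 and 371 ± 11.9 for ITGA3. ITGA6, LAMB3, ITGB4 and LAMC1 followed in isolated 22 at 126, 116, 88.8 and 88.7 CPM per kb. Among alpha chains of laminin, LAMA5 was the highest (57.2 CPM per kb in isolated 22), followed by LAMA3 (7.41) and LAMA4 (1.68). LAMA2 and LAMA1 were lower still, at 0.170 and 0.0114 CPM per kb. With the union of all exons as the length, 4 or 5 of the top 5 genes of the isolated 22, 35, 45 and Pop groups were the same, and in lineage 10 LAMB3 stood above ITGA3.

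**Figure D1:**
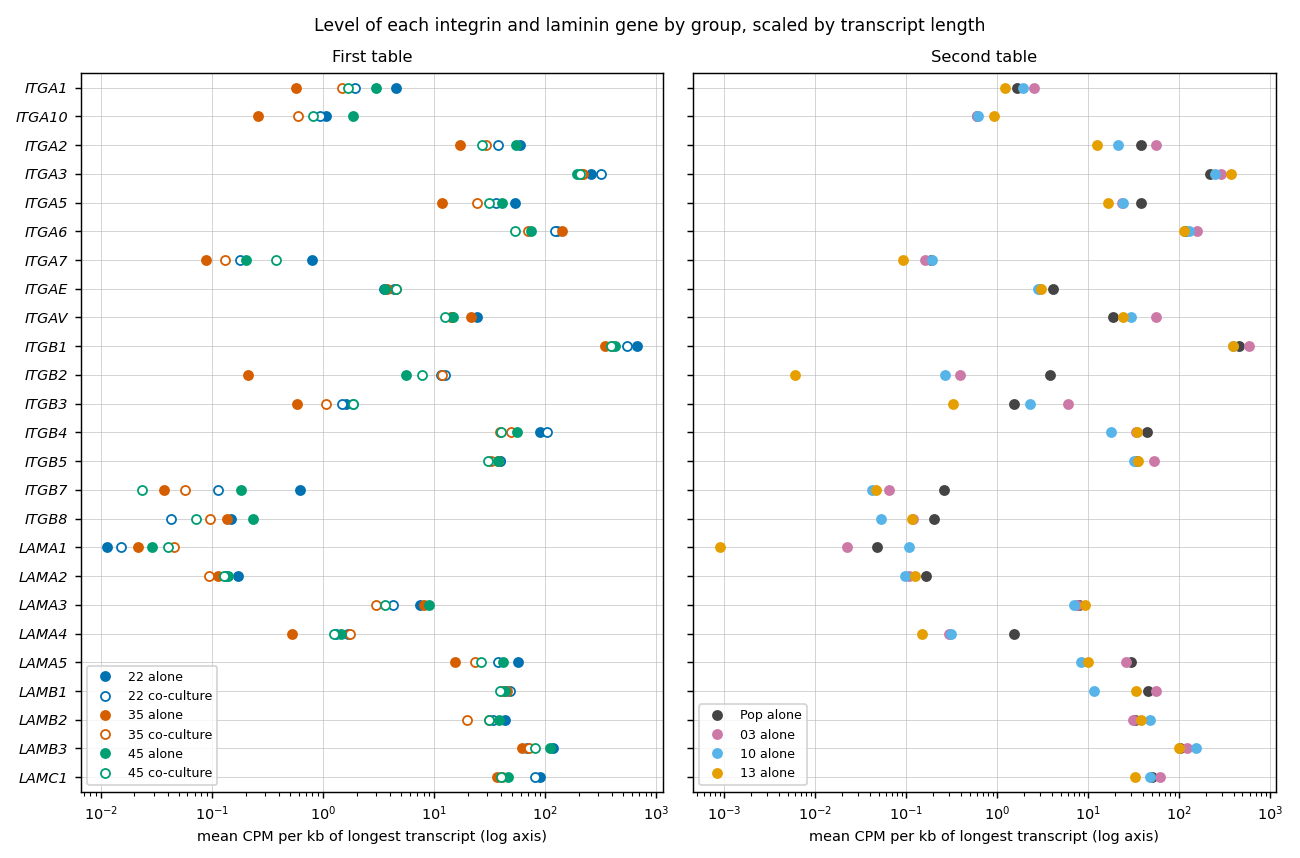
Mean level of 25 of the genes in CPM per kilobase of the longest transcript (log axis), one point per group, filled for isolation and open for co-culture, with the first table on the left and the second on the right. ITGB1 and ITGA3 lie at the right in every group, and within the first table the points of ITGB2, LAMA4 and ITGA1 for isolated 35 (filled orange) lie left of the other groups.

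Between isolation and co-culture, matrix receptor and laminin transcripts were mostly lower after co-culture in lineages 22 and 45 and mostly higher in the libraries labelled 35. Of the 27 genes of the 2 families that could be tested (the 26 and LAMB4), 16 differed in lineage 22, 2 of them higher and 14 lower (edgeR, Benjamini-Hochberg adjusted p below 0.05 over all genes). Calls were frequent in all of these contrasts: in lineage 22, 56.9% of the 14570 genes tested passed, 27.0% being higher and 30% lower. In lineage 45, 16 passed, 2 higher and 14 lower, against a background of 41.8%, with 18.6% higher and 23.2% lower. In the libraries labelled 35, 17 passed, 13 higher and 4 lower, against 65.5%, with 32.7% higher and 32.9% lower. The median log2 fold change of the 27 genes was -0.34 in 22, 0.33 in 35 and -0.31 in 45, and that of all genes was -0.04, 0.01 and -0.03. At least 2-fold changes among the called were fewer: 5 genes in 22 (background 13.7%), 9 in 35 (23.8%) and 6 in 45 (9.40%). The shares called in 22 and 35 lie near the background.

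**Figure D2:**
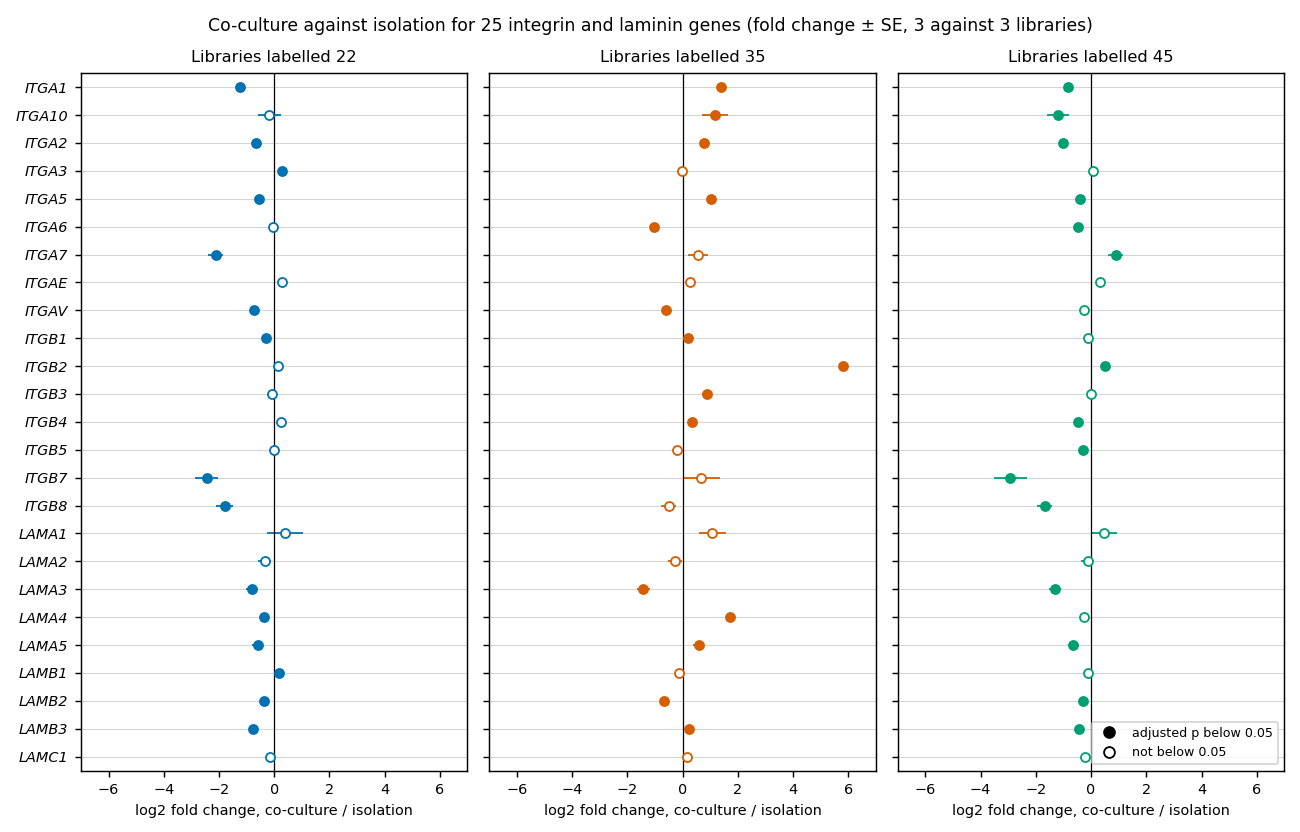
Log2 fold change of co-culture over isolation for 25 of the genes (point ± SE, 3 against 3 libraries) in the libraries labelled 22, 35 and 45, with filled points where the adjusted p is below 0.05. Most filled points of 22 and 45 lie left of 0 and most of 35 right of 0, with ITGB2 at 5.81 in 35.

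The collagen-binding alpha chains ITGA1 and ITGA2 fell in 22 and 45 and rose in 35. ITGA1 (chromosome 5, 52787896 to 52959210, plus strand) pairs with ITGB1 to bind collagen. It gave 52.1, 43.9 and 51.2 CPM in isolated 22 and 23.2, 18.8 and 20.1 CPM after co-culture. In 45 the libraries read 32.5, 34.6 and 29.5 CPM alone and 21.4, 15.2 and 17.7 CPM after co-culture. In 35 they read 6.58, 6.90 and 4.79 CPM alone and 14.0, 15.5 and 18.1 CPM after co-culture. The groups did not overlap in any of the 3 pairs, and after co-culture the 3 labels lay close together (20.7 ± 2.27, 15.9 ± 2.11 and 18.1 ± 3.11 CPM for 22, 35 and 45). ITGA1 thus fell 2.37-fold in 22 (log2 -1.24 ± 0.14 SE, adjusted p = 3.7e-07) and 1.78-fold in 45 (log2 -0.83 ± 0.14, adjusted p = 8.2e-05) and rose 2.6-fold in 35 (log2 1.38 ± 0.15, adjusted p = 1e-07).

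ITGA2 (chromosome 5, 52989326 to 53094779, plus strand), the alpha chain of the other main collagen receptor and the next gene downstream of ITGA1, had the same arrangement at a higher level. Isolated 22 held 433, 449 and 510 CPM and isolated 45 370, 471 and 430 CPM. After co-culture these were 283, 299 and 299 CPM in 22 and 210, 205 and 218 CPM in 45. The libraries labelled 35 went from 134, 152 and 114 CPM to 217, 215 and 262 CPM. The changes were 1.58-fold down in 22 (log2 -0.66 ± 0.11, adjusted p = 3.1e-05), 2.01-fold down in 45 (log2 -1.01 ± 0.11, adjusted p = 5.3e-07) and 1.73-fold up in 35 (log2 0.79 ± 0.11, adjusted p = 1.8e-06), with no overlap of groups. ITGA10, a collagen receptor chain of cartilage, was much lower (1.38 to 9.68 CPM as group means) and its libraries spread more. Its log2 fold changes were 1.18 ± 0.48 in 35 (adjusted p = 0.041) and -1.19 ± 0.40 in 45 (adjusted p = 0.029). The first did not pass without any one of isolation replicates 1, 2 or 3 or co-culture replicates 1 or 3 (adjusted p 0.053 to 0.20; log2 0.76 without co-culture replicate 3). The second did not pass without isolation replicates 1 or 2 or co-culture replicates 2 or 3 (0.052 to 0.097).

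Among alpha chains that bind the RGD motif, ITGA5, the fibronectin receptor chain (chromosome 12, 54395261 to 54419460, minus strand), followed the same course as ITGA1. It read 246, 269 and 284 CPM in isolated 22 and 176, 181 and 184 CPM after co-culture. In 45 it read 187, 208 and 210 CPM and then 145, 151 and 165 CPM. In 35 it read 51.5, 58.3 and 65.7 CPM and then 127, 115 and 119 CPM. It fell 1.47-fold in 22 (log2 -0.56 ± 0.09, adjusted p = 1.9e-05) and 1.31-fold in 45 (log2 -0.39 ± 0.09, adjusted p = 0.0012), and rose 2.06-fold in 35 (log2 1.04 ± 0.09, adjusted p = 2.6e-09). ITGAV, the alpha chain of the vitronectin receptors, fell in 22 (170 ± 17.6 to 102 ± 7.88 CPM, log2 -0.74 ± 0.12) and in 35 (152 ± 26 to 99.3 ± 11.6 CPM, log2 -0.61 ± 0.12). In 45 it stood at 103 ± 12.1 and 87.3 ± 5.79 CPM and did not pass (adjusted p = 0.12).

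The laminin-binding alpha chains did not move together. ITGA3 rose slightly in 22 (1420 ± 14.0 to 1730 ± 64.6 CPM, log2 0.29 ± 0.08, adjusted p = 0.0040), and in 35 and 45 its libraries overlapped between conditions. ITGA6 (chromosome 2, 172427354 to 172506282, plus strand), which pairs with ITGB1 or ITGB4, read 798, 832 and 735 CPM in isolated 35 and 382, 361 and 425 CPM after co-culture. This was a fall of 2.02-fold (log2 -1.02 ± 0.11, adjusted p = 5.9e-08), opposite to ITGA1, ITGA2 and ITGA5 in the same libraries. ITGA6 also fell 1.39-fold in 45 (417 ± 62.2 to 300 ± 22.7 CPM, adjusted p = 0.0013), while in 22 it stood at 709 ± 77.2 and 691 ± 49.9 CPM with overlapping libraries. Its hemidesmosome partner ITGB4 fell in 45 (327 ± 8.08 to 234 ± 40.6 CPM, log2 -0.48 ± 0.13, adjusted p = 0.0051). In 35 ITGB4 was higher (231 ± 14.8 to 290 ± 33.2 CPM, adjusted p = 0.029), a call that ended without isolation replicate 1 or 2 or co-culture replicate 1 or 3 (0.057 to 0.12).

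ITGA7, a laminin receptor chain best known from muscle (chromosome 12, 55684568 to 55716043, minus strand), was scarce. It read 3.94, 2.69 and 3.22 CPM in isolated 22 and 1.15, 0.645 and 0.437 CPM after co-culture, a fall of 4.35-fold (log2 -2.12 ± 0.28, adjusted p = 3.5e-06). In 45 it read 1.12, 0.783 and 0.601 CPM and then 1.39, 1.67 and 1.58 CPM, a rise of log2 0.89 ± 0.28 (adjusted p = 0.016) that did not pass without isolation replicate 2 or 3 (0.054 and 0.084). ITGA7 was the gene whose co-culture change differed most between 22 and 45 among these families (log2 difference -3.01 ± 0.40, adjusted p = 4.5e-05).

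ITGB2, the beta chain of the leukocyte integrins (chromosome 21, 44885953 to 44931989, minus strand), showed the widest gap of all. Isolated 35 held 1.13, 0.887 and 0.996 CPM, and the co-culture libraries labelled 35 held 57.3, 55.1 and 56 CPM, which is 56-fold more (log2 5.81 ± 0.16, adjusted p = 8.6e-17). Those co-culture values lay within the range of 22, which read 63.5, 51.7 and 48.2 CPM alone and 59.6, 55.6 and 65.5 CPM after co-culture, with overlapping libraries. Lineage 45 went from 31.1, 25.3 and 22.7 CPM to 35.0, 35.5 and 40.3 CPM (log2 0.49 ± 0.11, adjusted p = 0.0019). The alpha chains with which ITGB2 pairs in leukocytes were nearly absent: no group mean of ITGAL, ITGAX or ITGAD exceeded 0.143 CPM, and ITGAM stayed at or below 0.180 CPM in every group of the first table. Of the 6 leukocyte markers, CD3E had at most 1 count in each group of the first table, PTPRC (CD45) stayed at 0.0504 to 0.938 CPM, CD14 at 0.223 to 1.65 CPM and CSF1R at 1.52 to 3.05 CPM. LAPTM5 alone was abundant, at 18.3 CPM in isolated 35, 67.8 CPM in 35 after co-culture and 95.4 to 210 CPM in the groups of 22 and 45. The summed leukocyte markers, most of which was LAPTM5, ran from 12.4 to 31.2 CPM in isolated 35 and from 68.9 to 75.0 CPM in 35 after co-culture, and of the 4 that could be tested there 3 were higher and 1, CSF1R, lower (3.05 to 1.52 CPM). In 45 the sum ran from 143 to 182 CPM alone and from 92.8 to 102 CPM after co-culture, lower where ITGB2 was higher. In 22 they ran from 202 to 232 CPM alone and from 144 to 159 CPM after co-culture, where ITGB2 overlapped, and their part in the ITGB2 result was not tested.

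Of the other beta chains, ITGB1 fell a little in 22 (2520 ± 83.4 to 2040 ± 134 CPM, log2 -0.31 ± 0.08, adjusted p = 0.0037). Its rise in 35 (log2 0.21 ± 0.08, adjusted p = 0.031) did not pass without isolation replicate 1 or 3 or co-culture replicate 2 or 3 (0.055 to 0.12). ITGB3 is a beta chain of platelets and endothelial cells and can pair with ITGAV. It rose 1.86-fold in 35 (2.30 ± 0.191 to 4.26 ± 0.572 CPM, adjusted p = 0.00022) and overlapped in 22 and 45. The 5 platelet markers summed to no more than 0.128 CPM in any library of the first table. In 45 ITGB5 differed by 1.22-fold (adjusted p = 0.031), which did not hold without isolation replicate 1 or 2 or co-culture replicate 1 or 2 (0.072 to 0.14).

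ITGB7 and ITGB8, scarce beta chains, fell in both 22 and 45. ITGB8, which with ITGAV activates latent TGF-beta (chromosome 7, 20330702 to 20415754, plus strand), read 1.23, 1.12 and 1.54 CPM in isolated 22 and 0.517, 0.235 and 0.370 CPM after co-culture. In 45 it read 1.57, 2.27 and 2.23 CPM and then 0.679, 0.731 and 0.481 CPM. The falls were 3.46-fold (log2 -1.79 ± 0.30, adjusted p = 4.6e-05) and 3.20-fold (log2 -1.68 ± 0.27, adjusted p = 5.9e-05). ITGB7, a lymphocyte beta chain (chromosome 12, 53191318 to 53207307, minus strand), went from 1.94, 1.44 and 1.99 CPM to 0.230, 0.381 and 0.370 CPM in 22 (log2 -2.45 ± 0.41, adjusted p = 4.8e-05). In 45 it went from 0.392, 0.432 and 0.751 CPM to 0.0283, 0.0878 and 0.0849 CPM (log2 -2.92 ± 0.59, adjusted p = 0.00058). Its alpha partner ITGAE stood at 11 to 17.4 CPM in all groups of both tables and passed in no co-culture contrast, and the other partner, ITGA4, did not exceed 0.387 CPM.

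Among the laminins, LAMB3 and LAMA3 behaved differently from each other. LAMB3 (chromosome 1, 209614870 to 209652466, minus strand) read 459, 515 and 522 CPM in isolated 22 and 296, 285 and 297 CPM after co-culture (log2 -0.77 ± 0.09, adjusted p = 6.7e-07). In 45 it read 468, 461 and 482 CPM and then 311, 343 and 381 CPM (log2 -0.45 ± 0.09, adjusted p = 0.00048). In 35 it read 226, 274 and 289 CPM and then 301, 307 and 317 CPM, a 1.17-fold rise (adjusted p = 0.029). That rise did not pass without isolation replicate 1 or co-culture replicate 2 or 3 (0.055 to 0.20). LAMA3 (chromosome 18, 23689443 to 23956222, plus strand) was lower after co-culture under all 3 labels. It went from 84.9, 75.5 and 76.5 CPM to 49.3, 36.1 and 50 CPM in 22, from 88.6, 93.0 and 75.6 CPM to 22.1, 35.8 and 38.5 CPM in 35, and from 111, 97.2 and 75.8 CPM to 40.0, 27.4 and 48.1 CPM in 45. The log2 fold changes were -0.81 ± 0.22 (adjusted p = 0.0058), -1.42 ± 0.22 (adjusted p = 5.1e-05) and -1.30 ± 0.22 (adjusted p = 0.00032), and no groups overlapped.

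LAMA5, the most abundant alpha chain (chromosome 20, 62307955 to 62367312, minus strand), read 644, 606 and 709 CPM in isolated 22 and 541, 367 and 383 CPM after co-culture. It read 479, 492 and 441 CPM and then 309, 208 and 383 CPM in 45, and 145, 188 and 200 CPM and then 227, 263 and 310 CPM in 35. Its log2 fold changes of -0.60 ± 0.20, -0.65 ± 0.20 and 0.59 ± 0.20 all passed (adjusted p = 0.016, 0.015 and 0.016). No groups overlapped, but each call ended without 1 library or another. The fall in 22 did not pass without isolation replicate 3 or co-culture replicate 2 or 3 (0.055 to 0.073), that in 45 without co-culture replicate 2 (0.056), and the rise in 35 without isolation replicate 1 or co-culture replicate 3 (0.073 and 0.072). LAMA4, an alpha chain of vessel and muscle basement membranes (chromosome 6, 112108760 to 112254939, minus strand), rose in 35 from 3.03, 4.18 and 2.99 CPM to 11.2, 10.1 and 12.7 CPM. That is 3.32-fold (log2 1.73 ± 0.13, adjusted p = 2.7e-10), up to the level of isolated 22 (11 ± 0.623 CPM). In 22 LAMA4 fell 1.28-fold (adjusted p = 0.014), which did not pass without isolation replicate 2 (0.057), and in 45 it stood at 9.58 ± 0.281 and 8.12 ± 0.142 CPM (adjusted p = 0.11). Endothelial cells also make LAMA4, and the 6 endothelial markers summed in 35 to 7 to 8.12 CPM alone and 126 to 137 CPM after co-culture. Nearly all of that sum was ESAM (6.65 and 125 CPM); of the 5 markers tested 4 were higher, while CDH5 had 0 and 2 counts and VWF 5 and 15 counts. They stood at 99.3 to 152 CPM in 22 and 45 in both conditions, and their part in the LAMA4 result was not tested.

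**Figure D3:**
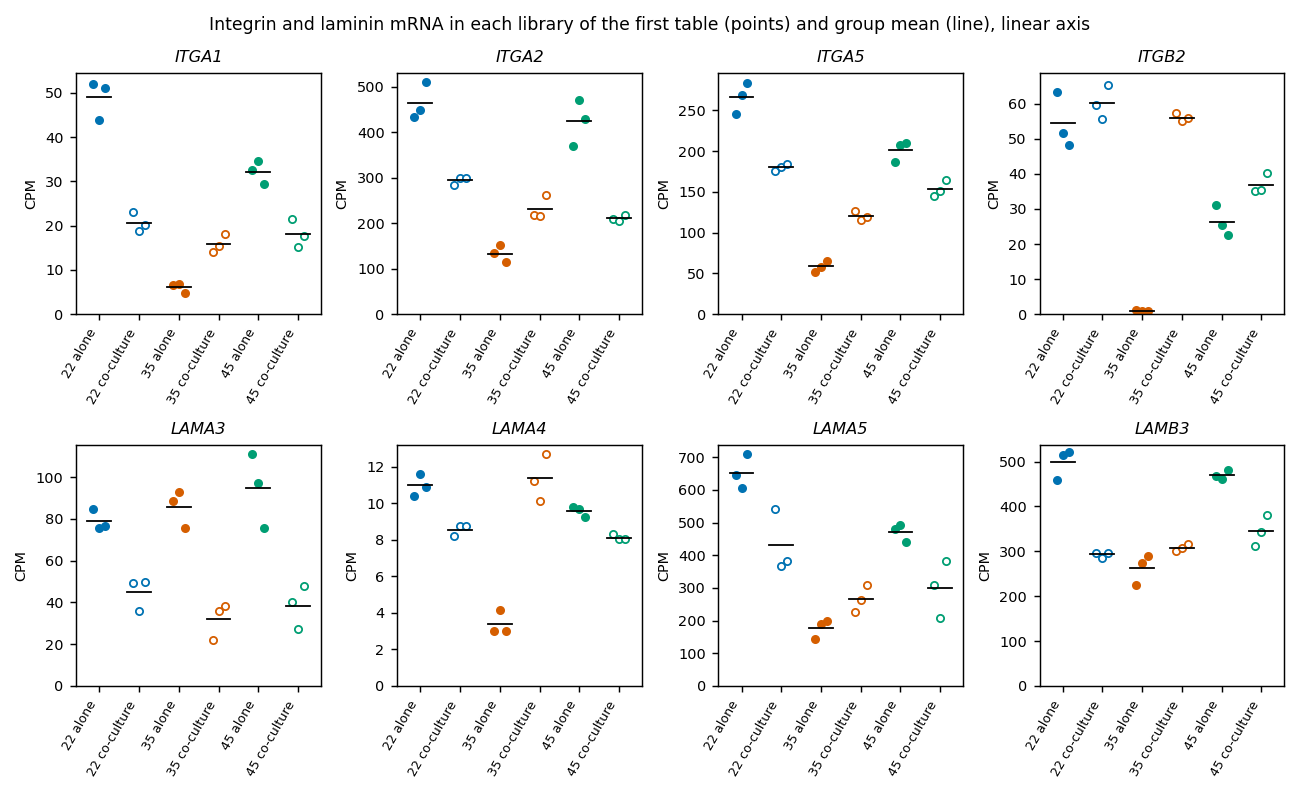
CPM of 8 integrin and laminin genes in each library of the first table (points, filled for isolation, open for co-culture) with the group mean as a line, on linear axes that start at 0. ITGA1, ITGA2 and ITGA5 converge after co-culture from high values in 22 and 45 and low values in 35, ITGB2 is near 1 CPM only in isolated 35, and LAMA3 is lower after co-culture under each label.

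LAMB2 and LAMB1 moved less. LAMB2 fell under all 3 labels, 1.30-fold in 22, 1.59-fold in 35 (178 ± 16.9 to 112 ± 11.2 CPM, adjusted p = 5.6e-05) and 1.24-fold in 45. The call in 22 ended without co-culture replicate 2 (0.069), and that in 45 without isolation replicate 1, 2 or 3 or co-culture replicate 1 or 2 (0.052 to 0.22). LAMB1, the common beta chain, stayed between 226 and 277 CPM in all 6 groups. It was 1.14-fold higher in 22 (adjusted p = 0.049), which did not pass without any of 5 of the 6 libraries, namely isolation replicates 1, 2 and 3 and co-culture replicates 2 and 3 (0.058 to 0.18). LAMB4, below the level limit, had 26 counts in the co-culture libraries labelled 35 and 2 in isolated 35, a ratio of 12.5 (95% interval 3.13 to 109, counting error only). LAMC1, LAMA1, LAMA2 and ITGAE were the 4 genes that passed under none of the labels. LAMC1 ranged from 288 to 699 CPM over the 6 groups, LAMA2 from 0.899 to 1.65 CPM and LAMA1 from 0.119 to 0.473 CPM.

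Lower after co-culture in 22 and in 45 were 10 of the 26 genes, a pattern that 16.4% of all tested genes had. Of these, 6 were also higher in 35, among them ITGA1, ITGA2, ITGA5, LAMA5 and LAMB3. Over all genes 2.27% had this course. For 4 of the 6, ITGA1, ITGA2 and ITGA5 among them, the 3 calls also held without each single library, and LAMA5 and LAMB3 lost calls as given above. LAMA3 and LAMB2 were lower under all 3 labels, as were 10.6% of all genes. The isolation groups of 22, 35 and 45 differ at the outset, and each contrast is against its own isolation group.

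The sequences before the start sites of the genes with this course are shown to let them be compared with that of LAMA3, which fell under each label. RefSeq (GRCh38.p14) gave a window for 26 of the 38 genes and 19 of the 26 described, and the 250 bases before the listed start were read, 5′ to 3′ on the gene's strand. Where RefSeq lists several windows for a gene (3 for LAMB3 and ITGB5, 2 for ITGA6, ITGAV and ITGB1) only the first was read, and the other start sites were not searched. Capitals mark matches on either strand to 4 motifs: TGANTCA of AP-1, GGGCGG of SP and KLF factors, GGAATG of TEAD and CCGGAAG of ETS, each searched separately, so that matches to different motifs may overlap.
ITGA1 (chr5:52787666-52787915, plus strand): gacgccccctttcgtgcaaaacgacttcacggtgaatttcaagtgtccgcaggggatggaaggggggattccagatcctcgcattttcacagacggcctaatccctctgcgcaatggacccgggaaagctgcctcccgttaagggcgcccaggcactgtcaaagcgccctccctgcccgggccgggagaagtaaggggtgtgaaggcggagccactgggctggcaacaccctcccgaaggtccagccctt
ITGA2 (chr5:52989102-52989351, plus strand): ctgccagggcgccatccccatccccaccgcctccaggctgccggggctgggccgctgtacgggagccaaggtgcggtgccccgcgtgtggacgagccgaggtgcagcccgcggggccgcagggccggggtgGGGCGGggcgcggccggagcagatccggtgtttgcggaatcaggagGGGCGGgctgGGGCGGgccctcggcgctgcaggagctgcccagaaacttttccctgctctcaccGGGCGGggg
ITGA5 (chr12:54419267-54419516, minus strand): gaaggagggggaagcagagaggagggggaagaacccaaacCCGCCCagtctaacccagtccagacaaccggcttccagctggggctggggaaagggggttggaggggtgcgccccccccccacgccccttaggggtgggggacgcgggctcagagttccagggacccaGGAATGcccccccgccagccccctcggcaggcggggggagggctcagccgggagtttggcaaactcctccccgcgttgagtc
LAMA5 (chr20:62367313-62367562, minus strand): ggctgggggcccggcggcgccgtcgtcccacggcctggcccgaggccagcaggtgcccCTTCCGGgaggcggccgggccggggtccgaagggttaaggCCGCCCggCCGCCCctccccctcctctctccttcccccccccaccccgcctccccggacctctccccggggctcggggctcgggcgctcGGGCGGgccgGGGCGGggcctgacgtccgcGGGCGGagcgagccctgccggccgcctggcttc
LAMB3 (chr1:209652426-209652675, minus strand): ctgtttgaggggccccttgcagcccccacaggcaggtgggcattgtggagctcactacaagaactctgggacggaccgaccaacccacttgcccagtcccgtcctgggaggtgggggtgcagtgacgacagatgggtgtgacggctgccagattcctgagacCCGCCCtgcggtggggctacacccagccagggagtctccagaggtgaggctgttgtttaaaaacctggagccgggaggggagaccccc
LAMA3 (chr18:23872770-23873019, plus strand): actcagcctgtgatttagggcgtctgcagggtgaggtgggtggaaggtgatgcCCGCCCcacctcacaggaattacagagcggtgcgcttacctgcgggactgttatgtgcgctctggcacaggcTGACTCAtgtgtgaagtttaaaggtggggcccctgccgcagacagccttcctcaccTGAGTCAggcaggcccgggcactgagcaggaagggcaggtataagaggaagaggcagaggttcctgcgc

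Within these windows ITGA2 held 4 matches to GGGCGG, LAMA5 held 5, and ITGA5, LAMB3 and LAMA3 held 1 each, while that of ITGA1 held no match to any of the 4 motifs. Such matches are common: 42.6% of the 35116 RefSeq windows of this length hold GGGCGG, and 11 of the 19 windows of the described genes did. LAMA3 held 2 matches to TGANTCA, which 6.57% of all windows hold, and none of the windows read for the other described genes had one. Its listed start lies 183577 bases inside the annotated gene, so it belongs to a shorter transcript. LAMA5 held 1 match to CCGGAAG (8.52% of all windows) and ITGA5 held 1 to GGAATG (11.9%). Guanine and cytosine made up 82.8% of the LAMA5 window and 60.4% of that of LAMA3. A match describes letters and shows no binding.

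Whether a co-culture change differed between the labels was tested directly. By the F test over the 3 labels 19 of the 27 genes passed, against 55.2% of all genes. Among the 8 smallest adjusted p-values were those of ITGB2 (9.8e-15), ITGA5 (1.5e-09), ITGA1 (2.7e-09), LAMA4 (3.3e-09), ITGA2 (8.1e-09), LAMB3 (4.1e-06) and ITGA7 (4.5e-06). Between 22 and 35, 17 genes passed (background 49.6%; at least 2-fold, 11 genes and 20.1%), and between 35 and 45, 16 (42.3%; the share of all genes at least 2-fold apart was 16.8%). Between 22 and 45 only 4 passed: ITGA7, ITGB4, ITGA6 and ITGAV, against 17.3% of all genes, and ITGA7 alone by at least 2-fold (4.21%). ITGB4 there differed by log2 0.71 ± 0.18 (adjusted p = 0.0097). ITGA6 (0.44 ± 0.15) and ITGAV (-0.50 ± 0.17), both at an adjusted p of 0.048, did not pass without the co-culture libraries labelled 35 (0.055 and 0.061), and each also lost its call without any one of 8 libraries (0.065 to 0.14 for ITGA6 and 0.066 to 0.14 for ITGAV).

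The co-culture changes were set beside those of chromosomal neighbours. For each gene the median log2 fold change of the 50 nearest tested protein-coding genes was taken (40 for LAMA1, near a chromosome end). In 35 after co-culture this median was 0.78 around ITGA5, 0.82 around ITGA7 and 0.71 around ITGB7, all on chromosome 12, against differences of 1.04, 0.56 and 0.68 in the genes themselves, of which only that of ITGA5 passed. It was -0.35 around ITGA6 and ITGAV on chromosome 2 and -0.40 around LAMA3 and LAMA1 on chromosome 18. Around ITGB2, ITGA1, ITGA2 and LAMA4 it was -0.12, 0.07, 0.12 and 0.23, against changes of 5.81, 1.38, 0.79 and 1.73. In 22 and 45 the medians lay between -0.35 and 0.26. What moved the neighbours was not tested.

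**Figure D4:**
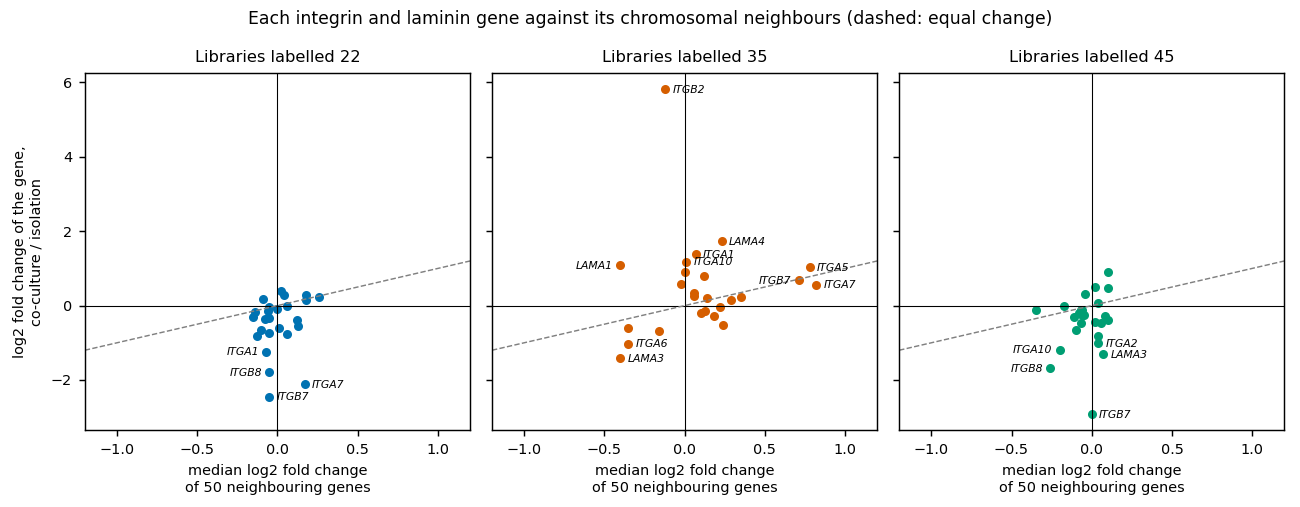
Log2 fold change of 25 of the genes in co-culture over isolation (vertical) against the median of its 50 neighbouring tested genes (horizontal) for the libraries labelled 22, 35 and 45, with equal change on the dashed line. ITGA5, ITGA7 and ITGB7 in 35 lie near that line at neighbour medians of 0.71 to 0.82, and ITGB2 at 5.81 lies far above it.

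In isolation the 3 lineages of the first table already differed in these genes, with 35 low. Between 22 and 35, 18 of the 27 genes were higher in 22 (background 63.6% called, 32.2% higher), and 13 of them at least 2-fold (20.7% of all genes differed by that much, 14.8% being higher). The median was 1.19, against 0 for all genes. ITGB2 was 54.3-fold higher in 22 (log2 5.76 ± 0.16, adjusted p = 1.1e-16), ITGA7 8.99-fold (3.17 ± 0.31) and ITGA1 8.04-fold (3.01 ± 0.15). ITGB7 differed by log2 4.10 ± 0.49, a value that 1 library could move: 3.47 without isolated 35 replicate 2, which had 0 counts of it, and 5.21 without replicate 3. Only LAMA2 among the 18 lost its call without a single library, namely any of isolated 22 replicates 1, 2 or 3 or isolated 35 replicates 1 or 3 (0.065 to 0.12). The libraries of 22 and 35 overlapped for ITGA6, ITGAE, ITGAV, ITGB5, ITGB8, LAMA1, LAMA3 and LAMB1.

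Between 35 and 45 in isolation 20 genes passed, 2 higher and 18 lower in 35 (background 51.8%, with 24.3% higher and 27.6% lower), and 12 differed at least 2-fold (15.8%). The 2 higher ones were ITGA6 (788 ± 48.9 against 417 ± 62.2 CPM, log2 0.92 ± 0.11) and ITGAV (152 ± 26 against 103 ± 12.1 CPM, log2 0.56 ± 0.12), and the neighbour medians there were 0.44 and 0.38. Among the lower were ITGB2 by 26.3-fold (log2 -4.72 ± 0.16), ITGA10 by 7.03-fold (-2.81 ± 0.46) and ITGA1 by 5.28-fold (-2.40 ± 0.15). Calls of ITGB1, ITGB8, LAMB2 and LAMC1 in this pair were lost without single libraries: ITGB1 without 45 replicate 3 (0.052), ITGB8 without 35 replicate 3 or 45 replicate 2 or 3 (0.054 to 0.066), LAMB2 without 5 of the 6 libraries, all but 35 replicate 3 (0.069 to 0.15), and LAMC1 without 35 replicate 3 or 45 replicate 2 (0.05 to 0.11). ITGB7 was lower in 35 by log2 -2.34 ± 0.55, or -1.72 without 35 replicate 2 and -3.45 without 35 replicate 3. LAMB4, with 2 counts in 35 and 72 in 45, gave a ratio of 45 to 35 of 31.7 (95% interval 8.46 to 267). Between 22 and 45, 14 genes passed, 12 higher and 2 lower in 22 (background 38.4%, with 18.6% higher and 19.8% lower), 4 of them at least 2-fold (8.01%). ITGA7 (3.94-fold), ITGB7 (3.38-fold) and ITGB2 (2.07-fold) were at least 2-fold higher in 22, and the lower ones were LAMB4 and ITGB8. ITGB8 (log2 -0.63 ± 0.25, adjusted p = 0.049) did not pass without 22 replicate 1 or 2 or 45 replicate 2 or 3 (0.12 to 0.15).

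After co-culture fewer of these genes separated 35 from 45 (8 called, against 20 in isolation). Between 22 and 35 the counts were close, 16 after co-culture and 18 in isolation. Under other processing choices they ran from 12 to 18 and from 15 to 19. As shares of the 27 genes, 16 and 18 are 59.3% and 66.7%, against 31.1% and 63.6% of all genes. Between 22 and 45 the count was 14 in both conditions, and at least 2-fold calls went from 4 to 7. The share of all genes called was lower after co-culture in each pair: 12.7% against 51.8%, 31.1% against 63.6% and 25.2% against 38.4%. Between 35 and 45, 8 of 27 passed (background 12.7%), and only ITGA7 at least 2-fold (2.90% of all genes), at 0.535 ± 0.130 against 1.55 ± 0.145 CPM (log2 -1.53 ± 0.30, adjusted p = 0.0015). Between 22 and 35, 16 passed (31.1%), 3 of them at least 2-fold (5.46%): ITGB4, at 616 ± 92.6 CPM in 22 and 290 ± 33.2 CPM in 35 (log2 1.09 ± 0.13, adjusted p = 3.8e-06), ITGB8 (log2 -1.15 ± 0.31, adjusted p = 0.0079) and LAMA1 (-1.61 ± 0.51, adjusted p = 0.021). LAMA1 had 0.156 ± 0.0745 against 0.473 ± 0.157 CPM, and its call ended without 22 replicate 1 or 2 or 35 replicate 2 or 3 (0.056 to 0.087). Besides LAMA1, the calls of ITGA1, ITGA2, ITGB3, LAMA4, LAMA5 and LAMB1, among others, ended without 1 library or another, and without 35 replicate 1 the count went from 16 to 10. Between 22 and 45, 14 passed (25.2%). ITGA6 and ITGB4, the hemidesmosome pair, were both higher in 22, at 691 ± 49.9 against 300 ± 22.7 CPM (log2 1.2 ± 0.11, adjusted p = 1.1e-07) and 616 ± 92.6 against 234 ± 40.6 CPM (1.4 ± 0.13, adjusted p = 3e-07). ITGA7 was 2.05-fold lower in 22 (log2 -1.04 ± 0.29, adjusted p = 0.012) and did not pass without 22 replicate 3 (log2 -0.78, 0.066). ITGB7 was higher by log2 2.22 ± 0.64 (adjusted p = 0.015) and did not pass without 45 replicate 1 (1.87, 0.072). LAMC1 was 2.01-fold higher in 22, at 549, 612 and 738 CPM against 256, 346 and 342 CPM (log2 1.01 ± 0.11, adjusted p = 2.6e-06). LAMB4 was lower in 22 (0.0756 against 0.476 CPM, log2 -2.68 ± 0.69, adjusted p = 0.0075), and so was LAMA1 (0.156 against 0.417 CPM, adjusted p = 0.049), with overlapping libraries and no call without 22 replicate 1 or 2 or 45 replicate 1 or 3 (0.10 to 0.18). Those 7 were the called genes of this pair that differed at least 2-fold (4.35% of all genes).

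In the second table Pop was set beside lineages 03, 10 and 13, all in isolation. The 3 comparisons share the Pop libraries. By a chi-square of counts per gene, 1 library stood apart from the others of its group in several groups. Co-culture replicate 3 of 22 gave 44.5 and 32.8, against 15.4 between the others. Co-culture replicate 1 gave 32.2 and 30.1 in 35 (against 10) and 35.4 and 44.6 in 45 (against 18.4). Isolation replicate 3 gave 22.3 and 25.2 in 35 (against 9.76) and 25.8 and 26.7 in 13 (against 8.27). Pop replicate 1 stood apart most (51.5 and 70.6, against 6.18 between replicates 2 and 3). It was the lowest Pop library for ITGA2 (185 against 339 and 383 CPM), ITGA5, LAMA5 and ITGB3. Without it 15, 18 and 17 genes passed for 03, 10 and 13, and the calls of ITGA2 and LAMA2 in 03, ITGA3, ITGAE and LAMA1 in 10 and ITGA7, ITGAV and LAMB2 in 13 ended (adjusted p 0.051 to 0.23). Of 27 genes tested (the 26 and ITGAM), 17 differed between 03 and Pop (9 higher, 8 lower, background 48.7%, with 23.2% higher and 25.5% lower), 19 between 10 and Pop (5 higher, 14 lower, 42.3%, with 18.8% and 23.5%) and 19 between 13 and Pop (4 higher, 15 lower, 45.2%, with 21.0% and 24.2%). The medians were -0.01, -0.23 and -0.46 on the log2 scale, against -0.03, -0.02 and -0.01 for all genes. At least 2-fold differences numbered 7 in 03 (11.9%), 10 in 10 (9.73%) and 11 in 13 (11.3%).

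ITGB2 and LAMA4 were lower than Pop in each of 03, 10 and 13. ITGB2 read 15.5, 19.0 and 21.0 CPM in Pop, 2.14, 1.42 and 2.12 CPM in 03, and 1.58, 1.14 and 1.08 CPM in 10 (log2 -3.29 ± 0.18 and -3.86 ± 0.19, adjusted p = 1e-08 and 6.8e-09). In 13 it had 3 counts in all, against 1865 in Pop. After scaling to library size that is a 651-fold ratio with a 95% interval of 222 to 3160, which covers counting error only. LAMA4 read 8.94, 11.8 and 9.67 CPM in Pop, 1.85, 2.04 and 2.00 CPM in 03, 1.61, 2.19 and 2.32 CPM in 10 and 1.02, 1.17 and 0.744 CPM in 13. These were 5.15-fold, 4.97-fold and 10.4-fold less than Pop (adjusted p = 1.9e-07, 3.6e-07 and 1.8e-08). Leukocyte markers summed to 93.2 to 122 CPM in Pop, 79.0 to 98.1 CPM in 03, 11.2 to 21.9 CPM in 10 and 11.7 to 22.8 CPM in 13. Endothelial markers summed to 84.1 to 98.5 CPM in Pop and to 13.5 to 17.8, 33.0 to 36.3 and 7.24 to 9.45 CPM in 03, 10 and 13. Their part in the ITGB2 and LAMA4 results was not tested.

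LAMA5 read 240, 352 and 437 CPM in Pop, 297 ± 53.1 CPM in 03, 74.0, 102 and 109 CPM in 10 and 97.1, 140 and 106 CPM in 13. It was lower in 10 (log2 -1.85 ± 0.22) and 13 (-1.58 ± 0.22), and overlapped between 03 and Pop. LAMB1 (chromosome 7, 107923799 to 108003255, minus strand) was lowest in 10, at 69, 63.3 and 71.2 CPM, against 256, 276 and 269 CPM in Pop (log2 -1.98 ± 0.07, adjusted p = 4.7e-10), where the neighbour median was -0.44. In 13 it read 186, 192 and 203 CPM, also below Pop (log2 -0.46 ± 0.07, adjusted p = 0.00013), and in 03 305, 324 and 335 CPM. LAMA3 stood between 74.8 and 97.9 CPM as group means, and LAMB3 was highest in 10 (670 ± 68.7 CPM).

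ITGAV and ITGB3, which form the vitronectin receptor, were highest in 03. ITGAV (chromosome 2, 186590065 to 186680901, plus strand) read 439, 416 and 327 CPM in 03 and 116, 137 and 144 CPM in Pop (log2 1.57 ± 0.12, adjusted p = 2.2e-07). ITGB3 (chromosome 17, 47253846 to 47311816, plus strand) read 23.3, 23.2 and 26.5 CPM in 03 and 3.77, 6.74 and 8.09 CPM in Pop (1.97 ± 0.22, adjusted p = 8.6e-06). In 13 ITGB3 was the lowest, at 1.19, 1.81 and 0.916 CPM (log2 -2.24 ± 0.27 against Pop, adjusted p = 1.7e-05), while ITGAV there stood at 170 ± 16.7 CPM, against 133 ± 14.4 CPM in Pop. ITGAM, the leukocyte alpha chain just below the level limit, was also highest in 03, with 94 counts against 15 in Pop, 3 in 10 and 1 in 13. The ratio of 03 to 13 was 105 (95% interval 18.5 to 4210).

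LAMA1, scarce everywhere, was highest in 10, at 1.16, 0.931 and 1.24 CPM, against 0.274, 0.762 and 0.446 CPM in Pop (log2 1.16 ± 0.35, adjusted p = 0.016). That call ended without 10 replicate 3 or Pop replicate 1 (0.057 and 0.059). In 13 LAMA1 had 1 count in all 3 libraries, against 110 in 10 (ratio 117, 95% interval 20.5 to 4650) and 50 in Pop (52.3, interval 8.97 to 2110). ITGA2 was lower than Pop in 10 (167 ± 4.99 against 303 ± 104 CPM, log2 -0.85 ± 0.22) and in 13 (99.8 ± 23.3 CPM, -1.60 ± 0.22). Its higher level in 03 (445 ± 31.5 CPM, adjusted p = 0.046) did not pass without 03 replicates 1, 2 or 3 or Pop replicates 1 or 2 (0.051 to 0.14). ITGB4 was 2.49-fold lower in 10 than in Pop (105 ± 14.4 against 262 ± 55.8 CPM, adjusted p = 1.7e-05), and ITGA3 was 1.68-fold higher in 13 (2030 ± 65.1 against 1210 ± 58.1 CPM, adjusted p = 2.3e-06). ITGB7 was lower in 03, 10 and 13 (0.187, 0.121 and 0.132 CPM, against 0.755 CPM in Pop), with log2 -2.61 ± 0.48 in 10, or -3.94 without 10 replicate 2. The neighbour medians of ITGB7 were -0.55, -0.56 and -0.52 in these contrasts. ITGA5 was 2.29-fold lower in 13 than in Pop (83.5 ± 9.04 against 191 ± 51.9 CPM, log2 -1.19 ± 0.17, adjusted p = 7.4e-05), with a neighbour median of -0.45. ITGA7 was 2.01-fold lower there (0.380 ± 0.0943 against 0.767 ± 0.179 CPM, adjusted p = 0.011), which did not pass without 13 replicate 2 or Pop replicate 1 (0.053 and 0.051). ITGB8 was 3.82-fold lower in 10 (0.463 ± 0.0259 against 1.78 ± 0.0194 CPM, adjusted p = 5.1e-06).

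**Figure D5:**
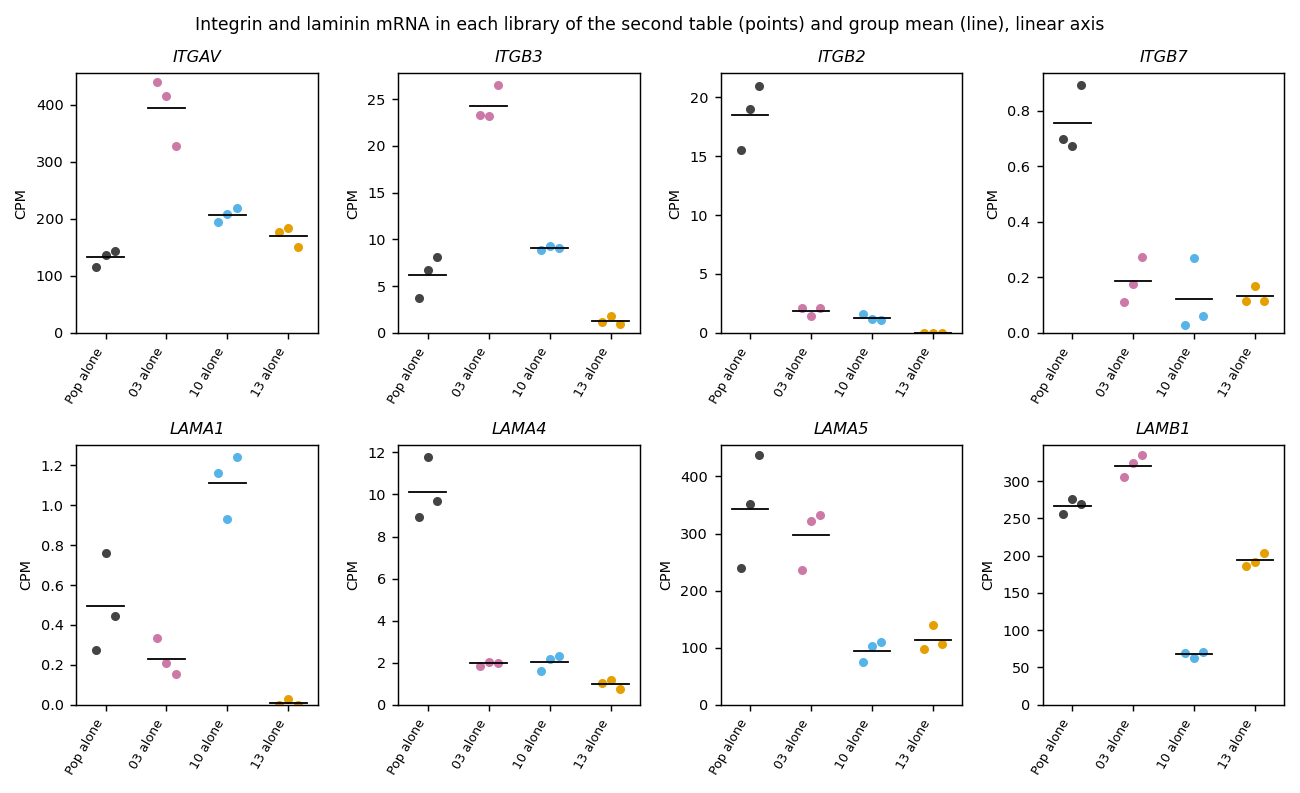
CPM of 8 integrin and laminin genes in each library of the second table (points) with the group mean as a line, on linear axes that start at 0. ITGB2 and LAMA4 are high in Pop alone, LAMA5 is lower in 10 and 13 than in Pop, LAMB1 is lowest in 10, and ITGAV and ITGB3 are highest in 03.

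Set against each other, 03 and 13 gave the most calls in these genes, 22 of 27 (18 higher and 4 lower in 03). The background was 53.2%, with 26.1% higher and 27.1% lower, and 10 of the 22 differed at least 2-fold (15.0%). Without 13 replicate 1 the count was 17, within the 16 to 18 that 03 against 10 gave without single libraries. The shares of all genes called without those libraries are not given. Calls of ITGA5, ITGA7, ITGA10, LAMA3 and LAMB3 for 03 against 13 ended without 1 library or another (adjusted p 0.051 to 0.19). ITGB3 was 18.5-fold higher in 03 (log2 4.21 ± 0.26, adjusted p = 2.4e-08) and ITGA2 4.45-fold (2.16 ± 0.22, adjusted p = 3.1e-06). ITGB2, with 176 counts in 03 and 3 in 13, gave a ratio of 65.8 (95% interval 22.2 to 322). Between 03 and 10, 18 passed (15 higher and 3 lower in 03, background 51.4%, with 26.4% higher and 25% lower), 8 of them at least 2-fold (14.3%), among them LAMB1 (4.74-fold, log2 2.24 ± 0.07), LAMA1 (log2 -2.28 ± 0.40) and LAMA5 (3.13-fold, 1.64 ± 0.22). Between 10 and 13, 15 passed (10 higher and 5 lower in 10, background 34.6%, with 16.6% higher and 18% lower), 7 of them at least 2-fold (7.81%), with ITGB3 6.94-fold higher and LAMB1 2.86-fold lower in 10.

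Chains of the same complex were compared over the 6 group means of the first table, as a description of 6 points that share a sequencing table. Pearson's r between LAMA3 and LAMB3 was 0.44, or 0.88 without the 2 groups labelled 35. ITGA6 and ITGB4 gave 0.49 and, without the groups labelled 35, 0.99 over 4 points. For LAMA5 with LAMC1 the values were 0.82 and 0.75, and for LAMA5 with LAMB1 0.10 and 0.34. LAMA4 and LAMB1 gave -0.33 and 0.03.

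Genes that work with these receptors and ligands were counted from lists, to be read against the shares of all tested genes that were higher and lower: 27.0% and 30% in 22, 32.7% and 32.9% in 35 and 18.6% and 23.2% in 45. Several list counts lie near these shares. The 30 cytoplasmic adaptors and kinases of adhesions (28 tested) had 10 higher and 4 lower after co-culture in 22, 8 and 5 in 35 and 3 and 8 in 45. TNS4, a tensin of focal adhesions, fell from 574 to 267 CPM in 22 (log2 -1.10 ± 0.19) and rose from 6.99 to 335 CPM in 35 (5.58 ± 0.24, adjusted p = 1e-11). Against Pop, at 158 CPM, TNS4 stood at 1.18 CPM in 03, 0.0906 CPM in 10 and 0.0655 CPM in 13. The kindlin FERMT1, which activates integrins, fell from 55.6 to 29.5 CPM in 22 (log2 -0.91 ± 0.11). Both TNS4 and FERMT1 belong to the 4 lower genes of this list in 22, where 10 were higher. TLN2, a talin, fell in 35 from 70.5 to 14.7 CPM (-2.26 ± 0.16).

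Of the 8 tetraspanins and hemidesmosome partners, 1 was higher and 4 lower in 22, 2 and 4 in 35, and 4 lower in 45. COL17A1, the transmembrane collagen of hemidesmosomes, fell under all 3 labels, from 22.2 to 6.90 CPM in 22 (log2 -1.69 ± 0.17), 11.6 to 5.91 CPM in 35 (-0.97 ± 0.17) and 24.9 to 7.73 CPM in 45 (-1.69 ± 0.17). The tetraspanin CD82 fell most in 35 (157 to 29.1 CPM, -2.44 ± 0.13). Of the 11 basement membrane partners of laminin (9 tested), 2 were higher and 5 lower in 22, 1 and 3 in 35 and 2 and 5 in 45. NTN4, a netrin that caps laminin networks, fell in 22 (172 to 83.3 CPM, log2 -1.04 ± 0.10) and 45 (92.9 to 59.9 CPM, -0.63 ± 0.10) and rose in 35 (4.28 to 61.5 CPM, 3.84 ± 0.12). COL4A5, a collagen IV chain, fell in 22 (38.1 to 5.98 CPM) and 45 (15.1 to 6.65 CPM). In the second table NTN4 was lower than Pop (58.6 CPM) in 03, 10 and 13, at 4.73, 2.87 and 3.03 CPM.

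Of the 23 integrin ligands other than laminin (17 tested), 6 were higher and 4 lower in 22, 8 and 3 in 35 and 5 and 4 in 45. FN1, fibronectin, fell in 35 from 917 to 184 CPM (log2 -2.31 ± 0.21) and in 45 from 471 to 271 CPM (-0.80 ± 0.20), in 35 against the rise of its receptor chain ITGA5. THBS1, thrombospondin, fell in 22 (1830 to 1230 CPM), 35 (7480 to 1470 CPM) and 45 (2220 to 1080 CPM). In 35 FN1 and THBS1 are among the 3 lower genes of this list, while 6 of the 8 higher ones rose at least 2-fold. The median log2 fold change of the 17 tested was 0.86 there. VCAM1 and ICAM1, ligands of leukocyte integrins, were higher in 03 than in Pop (39.8 against 1.33 CPM and 121 against 20.3 CPM). Of the 16 genes of this list tested in that contrast, 3 were higher and 7 lower (23.2% and 25.5% of all genes). Their median log2 fold change was -0.34. Of the 7 laminin receptors that are not integrins, 4 were higher and 3 lower in 22, 4 and 2 in 35 and 2 and 2 in 45. The Lutheran glycoprotein BCAM, a receptor for LAMA5, rose from 26.5 to 49.5 CPM in 22 (log2 0.90 ± 0.09).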

How the data were processed

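RNA of 30 libraries in 10 groups of 3 was sequenced with a stranded messenger RNA kit, per the labels' protocols. The deposited tables hold estimated counts per gene, scaled by transcript length, 1 column per library. The submitters' processing notes name STAR 2.6.1d, Salmon 1.4.0 and GRCh38, with no role or order, and the annotation is not given in the sources used here. The estimated counts the authors deposited were rounded to whole numbers.

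Each table was fitted on its own over all its groups with edgeR 4.0.16 in R 4.3.3 (limma 3.58.1): filterByExpr, TMM normalization, a robust quasi-likelihood fit and Benjamini-Hochberg adjustment over all 14570 or 14638 genes tested, with 0.05 as the threshold. Rounded to 3 digits, the biological coefficient of variation was 10.4% in both tables. The SE of a log2 fold change is its size divided by the square root of F. The test of a response is the co-culture contrast of 1 lineage minus that of another. Gene lengths and coordinates come from GENCODE v29 (GRCh38), and the neighbour median takes the 25 tested protein-coding genes on each side. CCN1 and CCN2 were found under older symbols through RefSeq synonyms. Intervals of count ratios are exact 95% intervals and cover counting error only.

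The members and lists were chosen with earlier results of these data known. Genes that enter the counts are named, except 1 that is not reported here. Full values go to genes called at least 2-fold without overlap, to the 8 largest changes of each co-culture comparison, the 4 largest of the others and the 8 smallest p of the F test, and list members are named from the 4 largest called changes with at least 5 CPM in a group. Alternatives were DESeq2 1.42.0, other scaling, filters, thresholds and gene lengths, a replicate block, leaving out the libraries labelled 35 or all groups but those compared, and leaving out each library. In simulated counts for 22 with 14570 genes, 85.1% of genes changed 2-fold and 58.3% of those changed 1.5-fold were recovered. Only 50 genes were changed at each fold there, and all others kept 1 mean over the groups. In the data 56.9% of genes were called in 22, so these rates do not give the power of the tests above. The labels state no pairing of replicate numbers. Deviations from group means of same-numbered libraries correlated above 0.1 in all 3 pairs only between 22 and 45 after co-culture (0.36, 0.25 and 0.17).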

Additional observations from a re-analysis of the deposited data

Results flagged for a closer look

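For 2 of the genes named here, the co-culture change was at least 2-fold in opposite directions under 2 labels and the difference itself passed (edgeR, adjusted p over all genes). ITGA1 fell in 22 (log2 -1.24) and rose in 35 (1.38), a difference of -2.62 ± 0.20 (adjusted p = 1.6e-09). ITGA10 differed by 2.36 ± 0.62 between 35 (1.18) and 45 (-1.19), with an adjusted p of 0.0068, although each of its own changes lost its call without single libraries. Both involve the libraries labelled 35, whose co-culture samples went against their label.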

How the results depend on the processing

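Of 946 alternatives to 70 values, those of the largest changes in each comparison by the naming rule, 927 kept the direction and the side of the threshold and 19 kept the direction only, in 5 results: ITGA10 in 35 and in 45, LAMA1 between 22 and 35, and ITGA7 and ITGB7 between 22 and 45 after co-culture. Of all genes above the level limit called in 22, 35 and 45, 4, 5 and 5 lost the call without some library, as given beside them. Without a filter on low counts ITGA10 did not pass in 35 (adjusted p = 0.079) or 45 (0.061), and with the compared groups alone ITGA10 in 45 (0.069) and ITGA7 between 22 and 45 (0.066) did not pass. The cause was not tested. With only genes of at least 5 CPM in 3 libraries, where fewer genes are tested, 2 genes passed between the responses of 22 and 45 and 11 between 03 and Pop. With the compared groups alone, where fewer libraries set the spread, 8 passed between 22 and 45 after co-culture.

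Asking also for a 2-fold difference left 5 genes in 22, 9 in 35 and 6 in 45 between co-culture and isolation, 4 between 22 and 45 and 12 between 35 and 45 in isolation, and 3, 7 and 1 after co-culture for 22 against 35, 22 against 45 and 35 against 45. By that rule the response differed for 11 genes between 22 and 35 and 1 between 22 and 45. It left 7, 10 and 11 genes for 03, 10 and 13 against Pop, 8 for 03 against 10, 10 for 03 against 13 and 7 for 10 against 13. Leaving out 1 library gave 2 to 4 genes for the responses of 22 and 45, lowest without isolated 22 replicate 2, isolated 45 replicate 2 or co-cultured 22 replicate 3, and 10 to 16 for 22 against 35 after co-culture. DESeq2 called 17, 17 and 15 genes in 22, 35 and 45, against 16, 17 and 16 in the main fit. Apart from the 2-fold rule, shares of all genes called under the alternatives are not given. Those counts therefore show only how far the main counts moved. The correlation of LAMA4 with LAMB1 changed sign, to 0.03, without the groups labelled 35.

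Without all libraries labelled 35, 17 genes passed in 22, 15 in 45 and 3 between their responses. Without only the 3 co-culture ones, a choice made after seeing the data, these were 16, 14 and 3. A replicate block gave 16, 18 and 16 genes in 22, 35 and 45, and 16, 17 and 19 for 03, 10 and 13 against Pop. Between 22 and 45 after co-culture, the pair in which same-numbered libraries deviated together, the block gave 16 genes against 14. Elsewhere the libraries share only a number. The block changed no call among the 70 values. It ended calls close to the threshold: LAMB1 in 22 (adjusted p = 0.053), ITGB8 between 22 and 45 in isolation (0.061), ITGAV between the responses of 22 and 45 (0.054), ITGA2 (0.055) and LAMA1 (0.074) for 03 against Pop, ITGA3 (0.068) and ITGAE (0.069) for 10 against Pop, ITGA10 for 13 against Pop (0.059) and LAMA3 for 03 against 13 (0.064).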
